A study of Mus musculus with 6 samples.

Results

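The Zfp genes are mouse genes whose symbol is Zfp followed by a number, given to proteins with zinc fingers and usually to no other named family. The deposited table held 333 such symbols, and 224 of them reached 1 RPKM (reads scaled by transcript length and by the library's total) in 3 or more of its 6 libraries. These 224 expressed genes, out of 23364 symbols in all and 11218 that passed the same filter, are described here. Expression level alone chose them, so their presence is not a result. The symbol is a matter of naming, and it also takes in proteins whose fingers are not of the C2H2 type, such as Zfp36.

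The libraries were 3 of osteoblasts and 3 of chondrocytes, all from C57BL/6 mice at postnatal day 1. The osteoblasts, cells that lay down bone, came from calvaria, the skull roof, were released with Liberase, were sorted for green fluorescent protein and carry the genotype label Sp7 positive. The chondrocytes, the cells of cartilage, came from wild-type rib cartilage and were released with Pronase and Collagenase D; the labels name no sort for them. Cell type, site, sorting, genotype label and enzyme go together and cannot be told apart. The labels name neither the construct behind the fluorescence nor whether replicates are separate animals or cultures, so p-values measure only the spread between these samples.

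A C2H2 zinc finger is a short fold, held by a zinc ion between a pair of cysteines and a pair of histidines, that reads a few bases of DNA. Rows of such fingers make up the largest class of mammalian transcription factors. Many of the proteins also carry a KRAB box, which recruits the corepressor Trim28 and through it the histone methyltransferase Setdb1, a route best known for silencing transposable elements. A few others act in the skeleton: Zfp521 binds Runx2, and Zfp219 is a partner of Sox9.

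The cell labels held in the marker genes. Sp7, the osteoblast transcription factor, was at 115, 108 and 134 RPKM in osteoblasts and at 0.911, 2.31 and 1.10 in chondrocytes. All 7 osteoblast markers tested were higher in osteoblasts and all 6 chondrocyte markers higher in chondrocytes. Some osteoblast markers were not low in chondrocytes. Col1a1 was at 2270, 2259 and 7765 RPKM there, its mean 4.81 times as high in osteoblasts, and Runx2 was at 9.36, 9.06 and 9.34. The chondrocyte libraries also differed, with Matn1 at 3.12, 46.6 and 3.10. Markers of other cells moved too: of 5 tested myeloid markers 4 (80%) were called for osteoblasts and 1 (20%) for chondrocytes as deposited. All 4 tested osteoclast markers were called for osteoblasts. Over all tested genes these shares were 55.5% and 13.5%. Summed over 7 myeloid markers, RPKM was 15.8 to 19.6 in osteoblast libraries and 5.27 to 11.6 in chondrocyte libraries. The 5 osteoclast markers summed to 208 to 222 and 47.9 to 165. Most of that was Ctsk, at 197, 205 and 196 RPKM in osteoblasts and 56.6, 45.0 and 162 in chondrocytes. The Ctsk call was lost after the median-of-ratios scaling described below (limma, adjusted p = 0.0918). As deposited it was lost in 5 of the 6 fits with 1 library left out. The other 3 tested osteoclast markers kept their calls in these fits. The erythroid sum over 4 genes was 13.5 to 29.2 and 2.92 to 12.8, and the fibroblast and perichondrium sum over 5 genes was 1212 to 1895 and 1080 to 3142. Endothelial, muscle and lymphoid markers passed the filter in no case, and Cd3e and Ckm were listed at the floor of 0.0001 in all 6 libraries. The part of other cells in the differences below was not tested, and in such bulk samples fewer cells of a type and less RNA per cell cannot be told apart.

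The 250 bases before the RefSeq start (build GRCm38.p6) are shown for 4 of the genes with the largest differences, chosen after their values were seen: Zfp648 and Zfp655 were higher in chondrocytes, Zfp365 and Zfp810 in osteoblasts. They are printed 5′ to 3′ on the strand of the gene, with each CG in capitals, to show that neither pair shares a CG-rich or a CG-poor start. The windows lie at chr1:154200937-154201186 (plus strand), chr5:145231492-145231741 (plus), chr10:67912663-67912912 (minus) and chr9:22307639-22307888 (minus). They hold 4, 21, 6 and 15 CG, and 4 windows picked in this way do not describe the called genes at large.
Zfp648: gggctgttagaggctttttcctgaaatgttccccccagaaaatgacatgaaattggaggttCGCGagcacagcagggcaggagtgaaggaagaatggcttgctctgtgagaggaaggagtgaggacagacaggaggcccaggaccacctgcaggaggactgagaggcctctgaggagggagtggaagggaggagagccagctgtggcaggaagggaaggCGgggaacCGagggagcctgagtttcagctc
Zfp655: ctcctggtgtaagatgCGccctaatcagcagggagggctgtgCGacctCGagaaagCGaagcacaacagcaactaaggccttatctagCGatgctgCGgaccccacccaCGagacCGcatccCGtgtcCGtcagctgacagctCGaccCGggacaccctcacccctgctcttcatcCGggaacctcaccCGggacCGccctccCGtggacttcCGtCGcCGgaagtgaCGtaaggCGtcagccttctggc
Zfp365: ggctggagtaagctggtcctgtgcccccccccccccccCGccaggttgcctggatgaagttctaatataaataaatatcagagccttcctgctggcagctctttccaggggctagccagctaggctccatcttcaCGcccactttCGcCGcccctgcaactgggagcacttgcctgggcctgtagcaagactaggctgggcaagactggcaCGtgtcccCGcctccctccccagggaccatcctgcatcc
Zfp810: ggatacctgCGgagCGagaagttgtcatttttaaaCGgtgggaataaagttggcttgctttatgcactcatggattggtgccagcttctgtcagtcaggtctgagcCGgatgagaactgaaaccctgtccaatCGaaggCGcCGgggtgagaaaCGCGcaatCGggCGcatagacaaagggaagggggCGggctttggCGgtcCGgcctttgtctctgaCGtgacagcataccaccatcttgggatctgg

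Promoters of the expressed Zfp genes as a set held more CG than RefSeq windows at large. The latter include genes that failed the expression filter, and windows of tested genes alone were not counted. The part of the filter in these contrasts was thus not tested. RefSeq windows existed for 179 of the 224 genes (222 windows), with a median of 13 CG against 6 over all 32851 windows. At most 5 CG were found in 14.0% of Zfp windows and in 49.6% of all windows, so the Zfp648 window is one of 31 such Zfp windows. GGGCGG, on either strand, was present in 50.9% of Zfp windows and 32.7% of all, CCAAT in 44.1% and 33.8%, and TATAAA in 6.76% and 12.4%. Genes called higher in chondrocytes had 62 windows, from 54 genes, with a median of 10.5 CG. Genes called higher in osteoblasts had 54 windows, from 41 genes, with a median of 15. Some called genes thus had several windows and others none. A match is a string of letters, not a bound site.

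Most Zfp genes were expressed at low levels in both cell types. The median of the mean RPKM over 6 libraries was 3.31, against 7.0 for all tested genes, and 67.0% of Zfp genes lay under 5 against 38.4% of all. Mean levels ran from 0.715 to 132 RPKM, with 25 genes above 10. All libraries held at least 1 RPKM of 184 of the genes. A further 6 reached the filter by their osteoblast libraries only and 4 by their chondrocyte libraries only, so their direction was built in, and 30 passed in other ways. Among the 109 symbols that did not pass, 92 reached 1 RPKM in no library and 17 in 1 or 2, and none exceeded 1.70. Zfp763 and Zfp69 lay just inside the filter, the third highest library being at 1.00 and 1.02 RPKM, and Zfp93 and Zfp341 just outside it, at 0.991 and 0.977.

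The Zfp genes divided nearly evenly between the cell types in a table that otherwise leaned to osteoblasts. With RPKM as deposited, 54 Zfp genes (24.1%) were called higher in osteoblasts, where 55.5% of all tested genes were, and 62 (27.7%) higher in chondrocytes, where 13.5% of all were. Calls rest on limma with Benjamini-Hochberg adjustment over all 11218 genes at an adjusted p under 0.05, and 108 Zfp genes were not called. Differences are given on the log2(RPKM + 1) scale, positive where osteoblasts are higher, and their median was -0.03 for Zfp genes and 0.43 for all genes. Every osteoblast library lay above every chondrocyte library in 73 Zfp genes (60.4% of all genes did so) and the reverse held in 71 (15.3% of all).

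The lean of the whole table depends on how libraries are scaled, and median-of-ratios scaling removed it. This scaling sets the typical gene equal between libraries, and it shifted osteoblasts against chondrocytes by 0.51 on the log2 scale. All genes then had a median difference of 0.01 and Zfp genes one of -0.33. After scaling, 14 Zfp genes (6.25%) were called higher in osteoblasts, against 30.4% of all, and 123 (54.9%) higher in chondrocytes, against 31% of all. The 14 were all among the 54. All 62 chondrocyte calls held, which a shift towards chondrocytes makes nearly certain. Another 40 osteoblast calls were lost, 61 uncalled genes became higher in chondrocytes, and no gene passed from one direction to the other. Without overlap between groups, osteoblasts were above in 23 (34.8% of all) and chondrocytes in 135 (35.6% of all). The direction of a Zfp gene with a small difference thus depends on the scaling. The Zfp median lay below that of all genes under both, an order that a shift shared by all genes could hardly change.

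**Figure D1:**
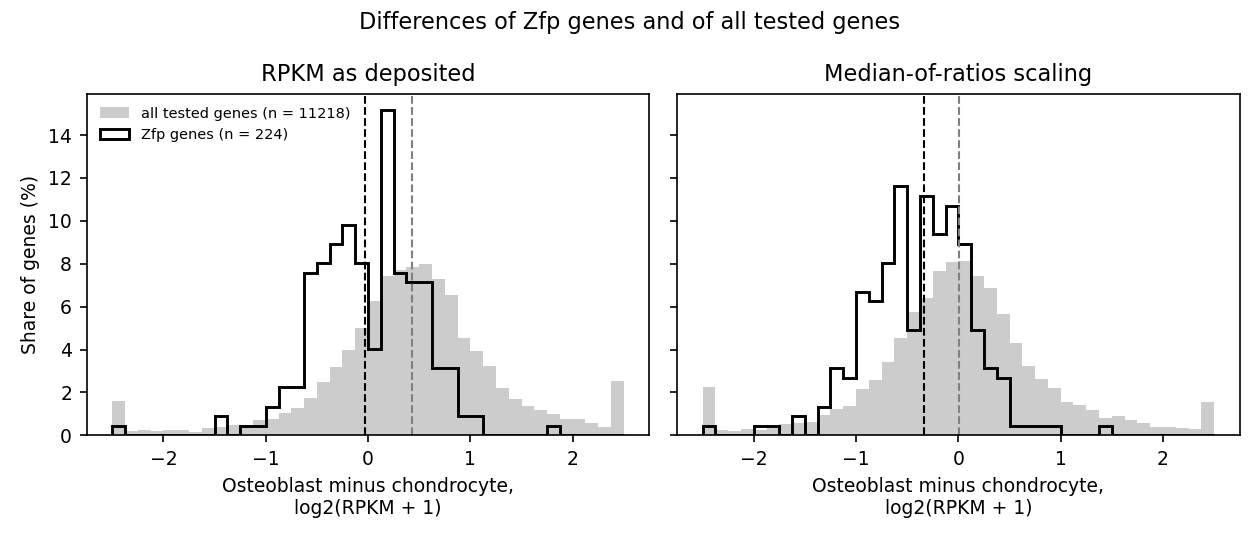
Share of genes (%) by difference between osteoblasts and chondrocytes on the log2(RPKM + 1) scale, in bins of equal width, for all 11218 tested genes (grey) and the 224 Zfp genes (black outline), as deposited (left) and after median-of-ratios scaling (right); values past either end are placed in the end bins and dashed lines are medians. The Zfp median lies left of the median of all genes on both sides: -0.03 against 0.43, and -0.33 against 0.01.

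The lower Zfp median was seen at low and at high expression. Among the 150 Zfp genes with mean RPKM under 5 the median difference after scaling was -0.36, against 0.01 for 4307 genes of that level. Among the 74 at 5 or more it was -0.29, against 0.006 for 6911 genes. Restricting both sets to genes with at least 1 RPKM in all 6 libraries gave 43 osteoblast and 55 chondrocyte calls in 184 Zfp genes as deposited. These are 23.4% and 29.9%, beside 53.6% and 12.6% of the 9329 such genes in the table. After scaling the counts were 8 (4.35%) and 108 (58.7%), beside 25.7% and 33.2% of those genes.

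Differences of Zfp genes were small on the log2(RPKM + 1) scale. That scale understates changes of low genes, and most Zfp genes were low, so the shares given next are not matched for level. Only 8 of 224 (3.57%) differed by more than 1 on the log2 scale as deposited, against 25% of all genes, and after scaling 9.82% against 19.0%. Chondrocyte replicate 2 was the lowest chondrocyte library in 176 Zfp genes (78.6%) and in 67.6% of all tested genes as deposited, and in 95 Zfp genes after median-of-ratios scaling. The median coefficient of variation of Zfp genes was 7.53% in osteoblasts and 14.6% in chondrocytes. Without that library, 79 Zfp genes were called higher in chondrocytes in place of 62, and 55 higher in osteoblasts in place of 54. Without osteoblast replicate 1, 47 and 36 were called. Shares over all tested genes are not given for these fits, so whether such changes are particular to Zfp genes was not tested. Summed over the 224 genes, Zfp transcripts took 0.366% to 0.460% of all RPKM in each library.

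Zfp648 had the largest difference among the 224 genes. It was listed at the floor of 0.0001 in all 3 osteoblast libraries and at 19.9, 17.5 and 17.9 RPKM in chondrocytes (mean 18.4 ± 1.27, SD, n = 3). The groups did not overlap, and no fold is given against values at the floor. The difference was -4.28 ± 0.10 (SE) on the log2(RPKM + 1) scale. Zfp648 reached the filter by its chondrocyte libraries only, so its direction was built in and no p is given. The translated protein has 10 finger motifs and no KRAB box.

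Zfp395 had the next largest difference among genes higher in chondrocytes, and was one of the most abundant Zfp genes of chondrocytes. Its RPKM was 11.9, 11 and 10.8 in osteoblasts and 37.9, 27.4 and 32.0 in chondrocytes, a mean 2.89 times as high in chondrocytes. The difference was -1.44 ± 0.13 (limma, adjusted p = 7.31e-05). Zfp655 was at 3.99, 3.87 and 3.22 against 12.8, 10.7 and 11.1 RPKM, 3.13 times as high in chondrocytes (-1.42 ± 0.11, limma adjusted p = 4.35e-05). Both genes were picked among those whose groups do not overlap, so that separation is not a result.

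The other 5 of the 8 largest chondrocyte differences were Zfp948, Zfp869, Zfp654, Zfp383 and Zfp938. Their ratios of mean RPKM were 2.60, 2.35, 2.62, 2.21 and 2.81 in favour of chondrocytes, and their differences ran from -1.15 to -0.89. Zfp869 was steady in osteoblasts at 4.55, 4.63 and 4.65 RPKM and spread in chondrocytes at 12.6, 8.93 and 11. Zfp938, like Zfp648, reached the filter by chondrocyte libraries only, so its direction was built in. The calls of the other 6 genes held as deposited with any 1 library left out. They also held after median-of-ratios scaling, but that scaling shifts genes towards chondrocytes and could hardly end these calls.

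Zfp365, whose protein binds DISC1, rose most in osteoblasts. It was at 6.69, 6.54 and 6.00 RPKM in osteoblasts and 1.13, 0.948 and 1.11 in chondrocytes, 6.03 times as high in osteoblasts. The difference was 1.84 ± 0.10 (limma, Benjamini-Hochberg adjusted p = 7.99e-06). Zfp810 had a larger ratio, 12.4, at a lower level: 1.3, 1.47 and 1.2 RPKM against 0.0827, 0.0734 and 0.163 (1.07 ± 0.09). Zfp810 passed the filter through osteoblasts alone, so its direction was built in and no p is given. Zfp428 was at 5.05, 3.89 and 2.95 against 1.45, 0.790 and 1.62 RPKM, 3.07 times as high in osteoblasts (1.11 ± 0.20, limma adjusted p = 0.00197).

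Zfp251, Zfp575, Zfp524 and Zfp580 followed, with ratios of 2.41, 3.26, 2.21 and 1.92 and differences of 0.85 to 0.97. Zfp575, like Zfp810, passed the filter through osteoblasts alone. The calls of the other 5 genes, Zfp365, Zfp428, Zfp251, Zfp524 and Zfp580, held after median-of-ratios scaling, and as deposited with each library left out in turn. Zfp651, the last of the 8 largest, did not hold: it was at 17.8, 18.1 and 14.7 RPKM in osteoblasts against 9.91, 5.17 and 13.6 in chondrocytes. Its adjusted p (limma, Benjamini-Hochberg) was 0.0345 as deposited and 0.227 after scaling, and the call ended when any 1 osteoblast library or chondrocyte replicate 1 was left out, with adjusted p up to 0.0957.

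**Figure D2:**
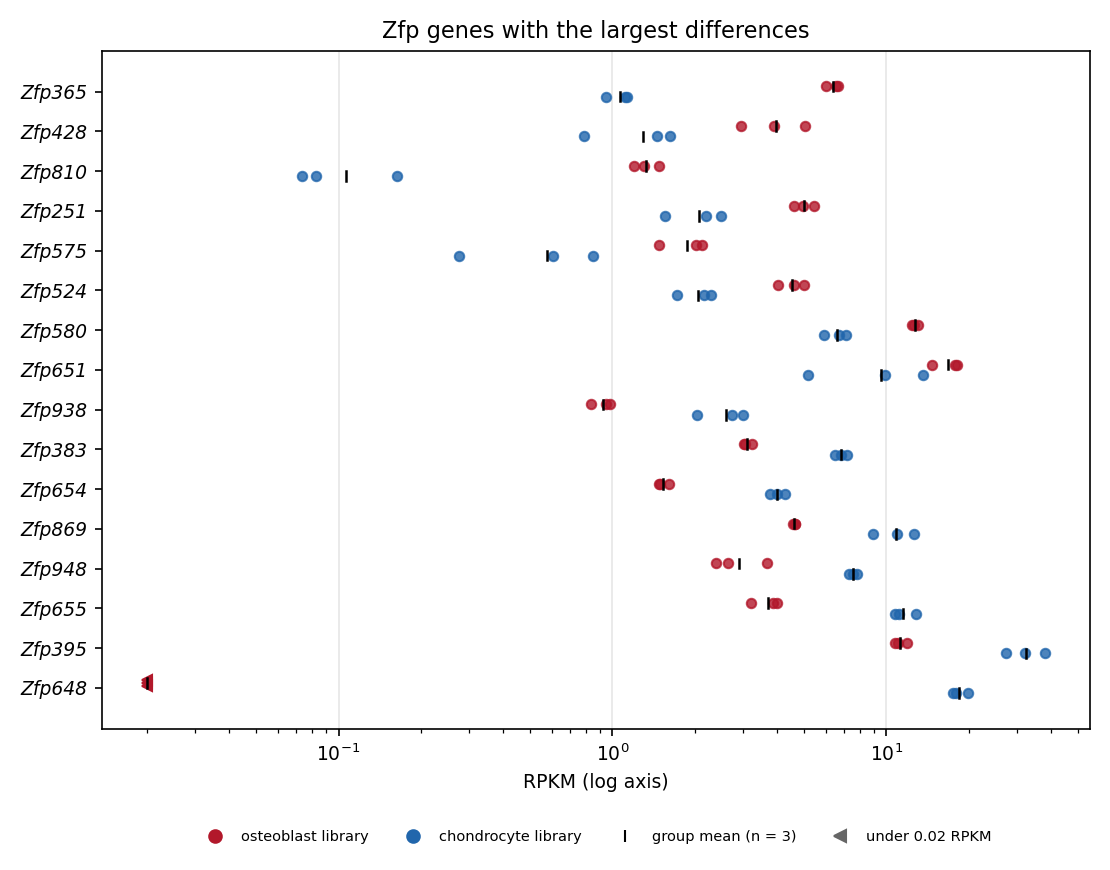
RPKM on a log axis in each library for the 8 Zfp genes with the largest differences towards osteoblasts (upper rows) and the 8 towards chondrocytes (lower rows); circles are libraries, bars are means of 3, and triangles are libraries below the range of the axis. The 16 genes were chosen among those whose groups do not overlap, so their separation is not a result. Zfp648 stands apart with all osteoblast libraries at the floor.

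The most abundant Zfp gene was one whose function is known. Zfp36, tristetraprolin, which binds AU-rich elements and hastens mRNA decay, was at 143, 189 and 135 RPKM in osteoblasts and 158, 56.7 and 108 in chondrocytes. The groups overlapped, and the difference of 0.63 ± 0.35 was not called (limma, adjusted p = 0.143). Without chondrocyte replicate 1 it was 0.97 and was called. Zfp36 responds to cell handling, as immediate early genes do. A list of 21 genes held immediate early genes and the heat shock genes Hspa1a, Hspa1b and Dnajb1. Of the 21, 7 (33.3%, beside 55.5% of all genes) were called for osteoblasts and 4 (19.0%, beside 13.5%) for chondrocytes as deposited. After scaling the counts were 4 (19.0%, beside 30.4%) and 10 (47.6%, beside 31%). Summed over all 21, RPKM was 2318 to 3304 in osteoblasts and 2233 to 4033 in chondrocytes. The part of handling in the Zfp differences was not tested.

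Zfp521, which binds Runx2 and is known in both osteoblasts and growth plate chondrocytes, was at 19.8, 18.7 and 17.5 RPKM in osteoblasts. In chondrocytes it was at 29.0, 14.9 and 36.6, a spread that enclosed the osteoblast libraries. As deposited it was not called (-0.41 ± 0.29, limma adjusted p = 0.235). Without chondrocyte replicate 2 the difference was -0.77, and after scaling it was -0.90 ± 0.24, and each was called higher in chondrocytes. Its paralogue Zfp423, a partner of Ebf1 known from fat precursors, was at 5.28, 4.35 and 4.61 against 2.63, 1.67 and 5.49 RPKM and was called under neither scaling. Without chondrocyte replicate 3 its difference was 0.88 and was called higher in osteoblasts. Ebf1 was at 3.38, 3.68 and 3.13 RPKM against 12.7, 7.78 and 10.1, higher in chondrocytes under both scalings.

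Zfp219, the Sox9 partner, was higher in osteoblasts as deposited, at 12.8, 12.7 and 11.8 against 10.8, 7.15 and 8.91 RPKM (0.45 ± 0.14, limma adjusted p = 0.0247). After scaling its difference was -0.02 and not called, and the deposited call was lost when any 1 osteoblast library was left out (0.43 to 0.48, adjusted p by limma 0.0522 to 0.0797). Zfp467, known to favour fat over bone formation in stromal cells, was at 5.06, 4.07 and 4.52 against 3.27, 1.34 and 2.76 RPKM. It was called as deposited (0.72 ± 0.22, limma adjusted p = 0.0208) but not after scaling (0.35, limma adjusted p = 0.172), nor as deposited without osteoblast replicate 1 (0.66) or 3 (0.73). Zfp384, also called Nmp4, a known brake on bone formation, had a difference of 0.36, called as deposited, and one of -0.12, not called, after scaling. Its deposited call was lost without osteoblast replicate 1 (0.39) or 2 (0.29).

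Of 18 tested Zfp genes with known roles, 7 (38.9%, beside 55.5% of all genes) were higher in osteoblasts as deposited and 1 (5.56%, beside 13.5%) in chondrocytes, with a median difference of 0.29. After scaling 0 were higher in osteoblasts, where 30.4% of all genes were, and 7 (38.9%) higher in chondrocytes, not far from the 31% of all genes. The 7 osteoblast calls as deposited were Zfp207, Zfp598, Zfp219, Zfp467, Zfp217, Zfp622 and Zfp91. Zfp598, the ligase that senses collided ribosomes, was at 21.7, 21.6 and 21.2 against 16.9, 11.4 and 17.1 RPKM. Zfp91, another ubiquitin ligase, was at 15.5, 16.3 and 15.3 against 11.3, 12.1 and 12.6. Neither was called after scaling. As deposited, Zfp598 was not called when any 1 osteoblast library was left out (0.50 to 0.51), nor Zfp622 without osteoblast replicate 1 (0.31) or 2 (0.38).

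Zfp64 was the 1 gene of the list called higher in chondrocytes under both scalings, at 6.20, 6.36 and 5.63 against 11.4, 8.08 and 8.27 RPKM (-0.52 ± 0.14, limma adjusted p = 0.0116). Zfp57, the KRAB protein that guards imprinted methylation, was at 4.54, 6.24 and 5.34 against 6.23, 6.31 and 5.36 and was called higher in chondrocytes only after scaling. The same was true of Zfp703, Zfp148, Zfp281 and Zfp451, and Zfp451 is a SUMO ligase. Zfp703, a corepressor, was at 16.7, 17.2 and 14.2 against 21.3, 14.5 and 17.1 RPKM, groups that overlapped. Zfp146, an abundant gene outside the list, was likewise called only after scaling, at 16.9, 17.7 and 17.1 against 22.0, 17.2 and 24.0 RPKM. Zfp143, Zfp503 and Zfp423 were called under neither. Zfp42, or Rex1, a marker of pluripotent cells, did not pass the filter and was at the floor in 5 libraries.

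**Figure D3:**
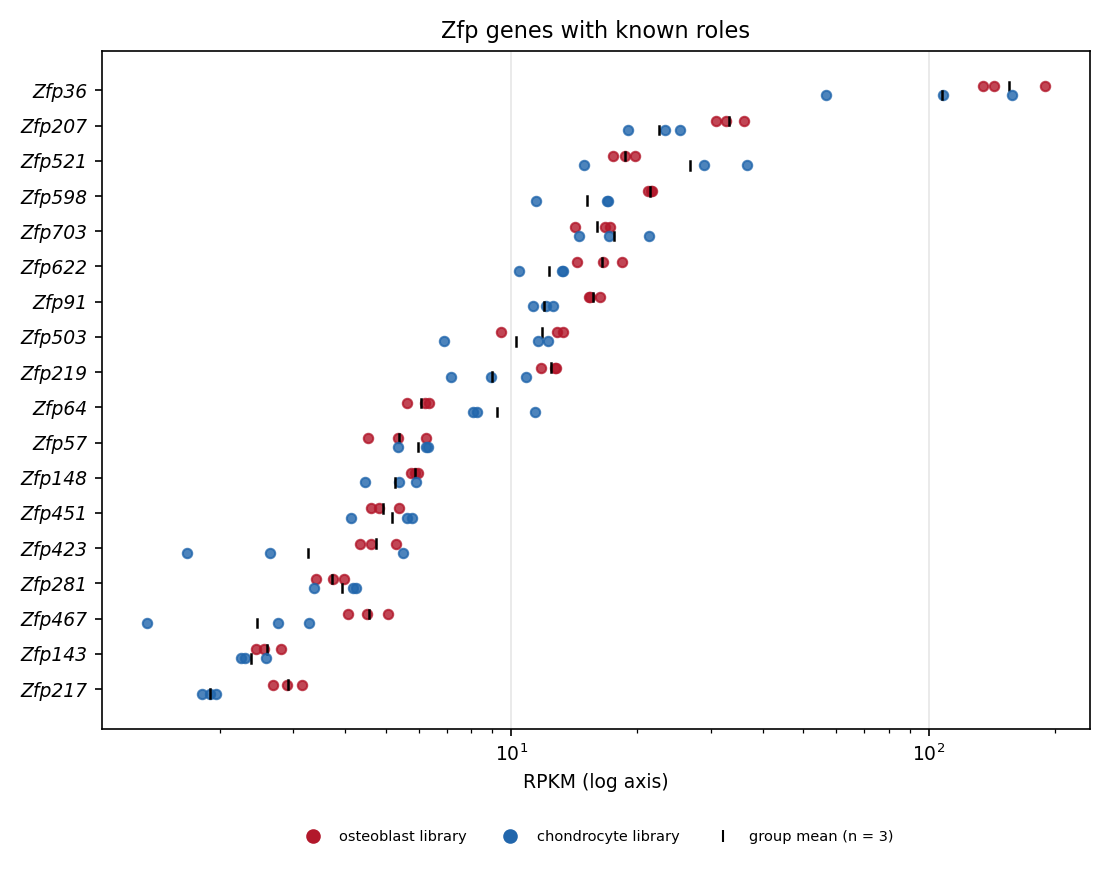
RPKM on a log axis in each library for the 18 tested Zfp genes with known roles, in order of mean level; circles are libraries and bars are means of 3. Zfp36 is the highest, chondrocyte libraries of Zfp521 spread to both sides of the osteoblast libraries, and Zfp64 is higher in every chondrocyte library.

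The genes were next grouped by protein. Coding sequences matched 221 of 224 genes (none for Zfp740, Zfp783 and Zfp862), and the median protein had 9 finger motifs, spelled C, 2 to 4 residues, C, 12 residues, H, 3 to 5 residues, H. The highest count was 33, in Zfp462 and Zfp142, and 9 genes had none, among them Zfp36, Zfp703 and Zfp503. A KRAB A box pattern was present in 99 genes and a SCAN box pattern in 7.

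Zfp genes with and without a KRAB box both lay to the chondrocyte side of all genes, of which 55.5% were higher in osteoblasts and 13.5% in chondrocytes as deposited. Of the 99 with the box 15 (15.2%) were higher in osteoblasts and 38 (38.4%) in chondrocytes, with a median difference of -0.16. Of the 122 without it 38 (31.1%) were higher in osteoblasts and 23 (18.9%) in chondrocytes, with a median of 0.17. After scaling the counts were 5 (5.05%) and 65 (65.7%) with the box and 9 (7.38%) and 56 (45.9%) without it, beside 30.4% and 31% of all genes, with medians of -0.45 and -0.25. Leaving out chondrocyte replicate 2 raised the count without the box that was higher in chondrocytes from 23 to 35, and leaving out osteoblast replicate 1 lowered the count higher in osteoblasts from 38 to 25. Shares over all tested genes are not given for those fits. The Zfp genes share ancestry and are not independent, so the counts are a description with no test.

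KRAB genes were also expressed at lower levels, with a median RPKM of 1.61 in osteoblasts and 2.00 in chondrocytes, against 5.24 and 4.70 without the box. Among genes with mean RPKM under 5, 15 (17.0%) of 88 with the box were called for osteoblasts and 30 (34.1%) for chondrocytes as deposited. Of the 61 others 15 (24.6%) and 13 (21.3%) were, beside 49.7% and 14.6% of all tested genes under 5. After scaling these counts were 5 (5.68%) and 54 (61.4%) with the box and 7 (11.5%) and 28 (45.9%) without it. All tested genes under 5 were then at 30.7% and 29.7%. The KRAB pattern had been widened to either end of the box after counts from its start alone had been seen, because the shorter pattern missed boxes in genes such as Zfp90 and Zfp251. The shorter one gave 91 genes, 11 (12.1%) higher in osteoblasts and 37 (40.7%) in chondrocytes as deposited. It left 130 without the box, 42 (32.3%) and 24 (18.5%), beside 55.5% and 13.5% of all genes. By finger number, 18 (17.5%) of 103 genes with 10 or more fingers were higher in osteoblasts and 35 (34.0%) in chondrocytes as deposited, and 13 (35.1%) and 6 (16.2%) of the 37 with 1 to 4, beside the 55.5% and 13.5% of all genes. After scaling the counts were 5 (4.85%) and 66 (64.1%) with 10 or more fingers and 5 (13.5%) and 17 (45.9%) with 1 to 4. Both groups were then more often higher in chondrocytes, beside 30.4% and 31% of all genes. Across 221 genes, which share libraries, finger number had a Spearman correlation of -0.22 with difference and -0.36 with mean RPKM. The box was in 66 of the 103 genes. As deposited, 11 (16.7%) of these 66 were higher in osteoblasts and 26 (39.4%) in chondrocytes. Of 30 KRAB genes with 5 to 9 fingers 4 (13.3%) and 12 (40%) were. Without the box the counts were 7 (18.9%) and 9 (24.3%) of 37 with 10 or more. They were 16 (38.1%) and 6 (14.3%) of 42 with 5 to 9, beside 55.5% and 13.5% of all genes.

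**Figure D4:**
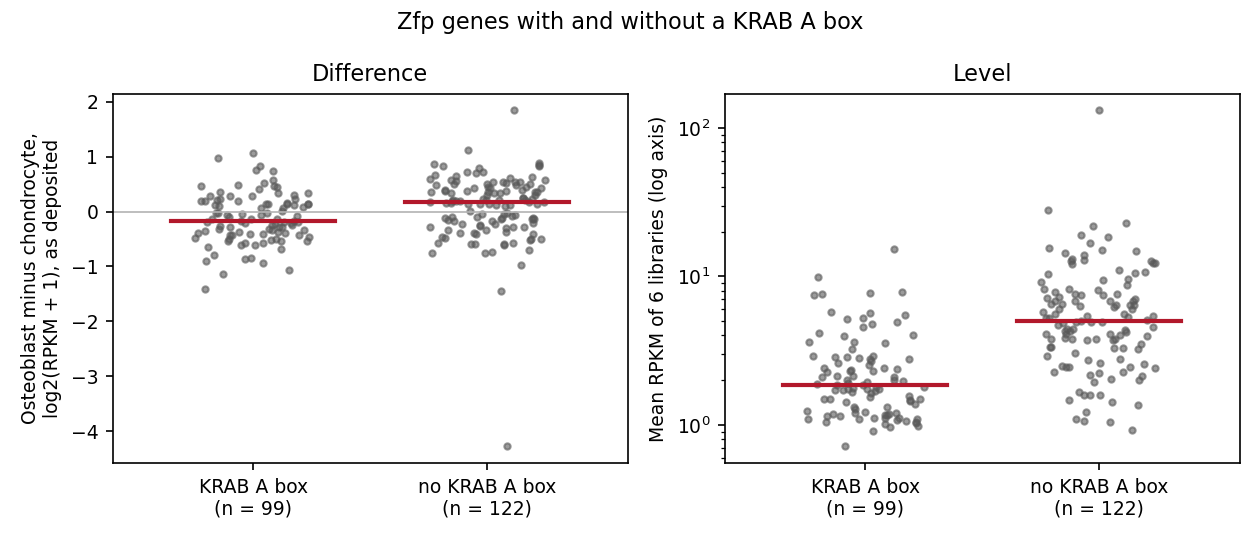
Difference as deposited on the log2(RPKM + 1) scale (left) and mean RPKM on a log axis (right) for Zfp genes with and without a KRAB A box pattern; points are genes, spread sideways at random, and red lines are medians. The box group lies lower in both panels, with a median difference of -0.16 against 0.17.

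A list of KRAB corepressors together with general chromatin genes, such as Dnmt1, Uhrf1 and Atrx, leaned to osteoblasts as deposited. Its members are not all specific to KRAB proteins. Of 32 tested, 24 (75%, beside 55.5% of the whole table) were called for osteoblasts and 1 (3.12%, beside 13.5%) for chondrocytes. After scaling they were 13 (40.6%, beside 30.4%) and 5 (15.6%, beside 31%). Trim28, the direct partner, was at 62.0, 63.8 and 54.1 against 35.4, 31.5 and 38.4 RPKM (0.76 ± 0.12, limma adjusted p = 0.0009), and Setdb1 at 9.46, 9.66 and 9.05 against 5.56, 4.49 and 5.63 (0.74 ± 0.11, limma adjusted p = 0.000664). Both were also called after scaling. The largest differences were in Uhrf1, a reader of hemimethylated DNA (1.93), and in Chd3 and Mbd3 of the NuRD complex (1.32 and 1.09). Gatad2b, another NuRD subunit, was the 1 gene higher in chondrocytes as deposited (-0.44).

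Other zinc finger families were counted in the same way. Of 32 tested Zbtb genes, which pair fingers with a BTB domain, 9 (28.1%, beside 55.5% of all genes) were higher in osteoblasts and 7 (21.9%, beside 13.5%) in chondrocytes as deposited. After scaling they were 4 (12.5%, beside 30.4%) and 20 (62.5%, beside 31%). Zbtb20, at 0.398, 0.315 and 0.261 against 6.31, 3.73 and 4.65 RPKM, Zbtb46 and Zbtb33 had the largest called differences to chondrocytes (-2.13, -1.37 and -0.94). Zbtb7b, Zbtb45 and Zbtb22 had those to osteoblasts (1.04, 0.78 and 0.77). These differences are as deposited, and after scaling Zbtb22 was no longer called (0.32, limma adjusted p = 0.0999). Of 14 tested Zscan and Zkscan genes, which carry a SCAN box, Zkscan3 was higher in osteoblasts (7.14% of the genes) and 4 (28.6%) were higher in chondrocytes as deposited: Zkscan14, Zscan25, Zscan21 and Zkscan8. The last 2 of these were each lost without at least 1 of the libraries. After scaling the counts were 0 and 9 (64.3%), beside 30.4% and 31% of all genes.

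Many Zfp genes sit in tandem clusters that arose by duplication. RefSeq order placed 222 of the 224 genes, and 51 fell into 9 runs of at least 4 with no more than 2 coding genes between neighbours, a rule set after values had been seen. Copies in a run are alike in sequence, the sources used here do not say how the authors divided reads between them, and their values are uncertain to that extent. In the run Zfp871, Zfp799, Zfp870, Zfp472, Zfp952 and Zfp763 all 6 differences were negative, from -0.54 to -0.13. Only Zfp871 and Zfp799 were called as deposited, and all 6 after scaling. Over all 224 Zfp genes 27.7% were called for chondrocytes as deposited and 54.9% after scaling, beside 13.5% and 31% of all tested genes. For osteoblasts the shares were 24.1% and 6.25% of Zfp genes, beside 55.5% and 30.4% of all tested genes.

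The run Zfp868, Zfp869, Zfp963 and Zfp866 had 3 of 4 called higher in chondrocytes as deposited and all 4 after scaling. Zfp866 was at 2.44, 2.35 and 2.04 against 5.47, 4.30 and 5.21 RPKM, and Zfp963 was the gene not called as deposited (-0.06). In the run of Zfp579, Zfp524, Zfp865, Zfp784 and Zfp580, which has no KRAB gene, 3 of 5 were higher in osteoblasts as deposited, and after scaling 2 were higher in osteoblasts and 2 in chondrocytes. Zfp580 was at 12.6, 12.4 and 13.1 against 7.15, 5.92 and 6.71 RPKM. The longest run, 12 genes from Zfp84 to Zfp146, was mixed as deposited, with 3 higher in osteoblasts, 2 in chondrocytes and 6 differences of each sign. After scaling 1 was higher in osteoblasts and 6 in chondrocytes. The run Zfp58, Zfp87, Zfp748 and Zfp738 had 4 negative differences, with 0 called as deposited and 4 for chondrocytes after scaling. The remaining runs, Zfp398 to Zfp467, Zfp768 to Zfp689, Zfp51 to Zfp948 and Zfp26 to Zfp846, held differences of both signs.

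The transcripts of a gene give a measure that does not depend on library scaling. Shares of RPKM could be tested for 79 transcripts of 32 Zfp genes, and 6 (7.59%) in 3 genes were called by limma at a Benjamini-Hochberg adjusted p under 0.05, against 11.7% of the 3999 transcripts tested. Zfp207, BuGZ, a spindle protein that protects Bub3 in mitosis, had the largest shift. Its transcript NM_001130171 made up 49.1%, 47.7% and 47.5% of the gene in osteoblasts and 10.5%, 3.21% and 22.2% in chondrocytes, a difference of 36.1 ± 4.85 percentage points (limma, adjusted p = 0.00479). NM_001130169 took 36.9%, 29.9% and 33.9% against 65.5%, 73.1% and 58.1% (-32.0 ± 4.56 points, limma adjusted p = 0.00622).

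In RPKM, NM_001130171 was at 15.2, 17.2 and 15.5 in osteoblasts and at 2.44, 0.613 and 5.61 in chondrocytes, whereas NM_001130169 was at 11.4, 10.8 and 11.1 and at 15.2, 13.9 and 14.7. The summed gene was higher in osteoblasts as deposited (0.55 ± 0.13, limma adjusted p = 0.00633) but not after scaling (0.05). Counting its most abundant transcript alone gave -0.37. Both transcript calls held with each library left out, while the third, NR_045038, was lost in 5 of 6 such fits. The sources used here do not say how reads were divided between overlapping transcripts.

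Zfp68 and Zfp426 showed the other shifts. NM_001044747 of Zfp68 held 52.5%, 53.3% and 50.3% in osteoblasts and 23.4%, 32.5% and 31.8% in chondrocytes (22.8 ± 3.62 points, limma adjusted p = 0.00956). NM_146221 of Zfp426 held 54.8%, 56.5% and 54.1% against 32.6%, 22.2% and 38.7%, the gene's other transcript holding the rest (24.0 ± 4.59 points, limma adjusted p = 0.0198). The Zfp426 calls were lost without osteoblast replicate 1, osteoblast replicate 2 or chondrocyte replicate 1, though the differences of NM_146221 were then 24.1, 23.3 and 24.7 points (limma adjusted p = 0.0618, 0.0695 and 0.0608).

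**Figure D5:**
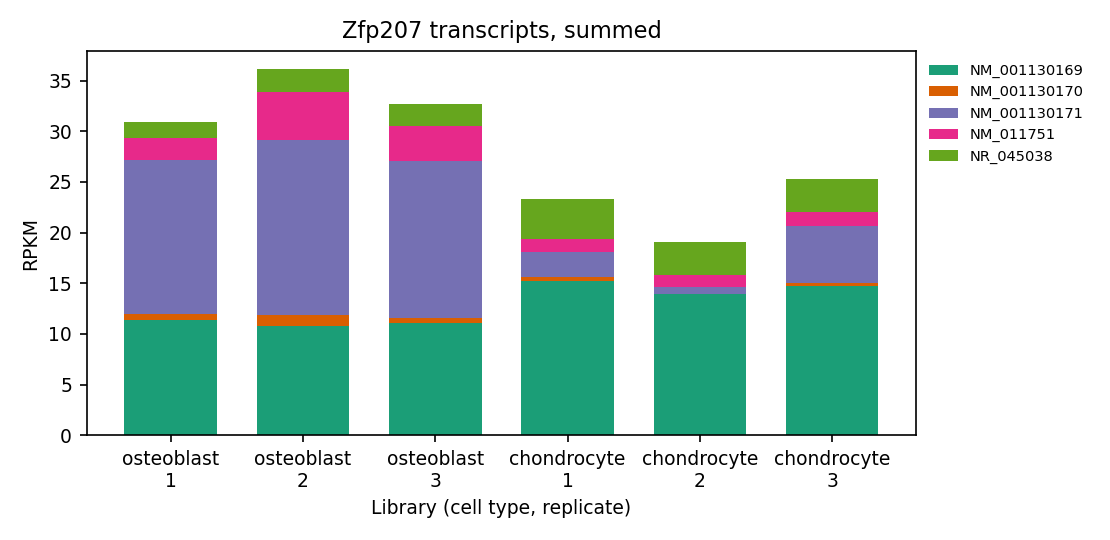
RPKM of the 5 Zfp207 transcripts stacked to the gene's sum in each library. NM_001130171 is large in the 3 osteoblast libraries (15.2 to 17.2 RPKM) and small in the 3 chondrocyte libraries (0.613 to 5.61), while NM_001130169 is somewhat higher in chondrocytes.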

How the data were processed

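RNA-seq values came from the 1 table that the authors deposited, in RPKM per RefSeq transcript, with 31055 transcripts of 23364 symbols and an added floor of 0.0001 per the file's lowest values. TopHat2 2.0.8 and build mm9 are named in the submitters' processing notes; the sources used here name no counting program. No value column was left out. No counts are held, so depth is not given, and no count model was run.

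Each symbol's transcripts were added up in RPKM, and symbols with at least 1 RPKM in at least 3 of 6 libraries were kept (11218). Groups were compared on log2(RPKM + 1) by limma 3.58.1 (R 4.3.3) with trend and robust moderation, two-sided, Benjamini-Hochberg adjusted over all symbols kept and called under 0.05. Log2 differences understate changes of low genes, and ratios are of mean RPKM. Median-of-ratios factors were computed from the RPKM of tested genes. Transcript shares were fitted by limma in percent of the symbol's RPKM, for symbols of at least 2 RPKM in all libraries and mean shares of 5% to 95%. Both fits were checked on simulated data. The members and lists were chosen with earlier results of these data known.

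Genes named are the 8 largest differences each way among called genes without overlap, the 4 most abundant in each cell type, the 4 most abundant uncalled, the list of known roles, up to 6 whose call changes with scaling, those at the filter, and those with a called share. Of other lists the 3 largest changes each way are named where shown; the genes of the neighbour runs were named after values were seen.

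Finger and box patterns were planned for a protein table. None was used: coding sequences of GENCODE M21 (GRCm38) were translated by RefSeq identifier. They gave no coordinates for mm9. Promoters and gene order are from RefSeq GRCm38.p6. Alternatives were pseudocounts of 0.1 and 5, no filter, mean RPKM of at least 5, 4 scalings, moderation without trend, a replicate block, library weights, 1 transcript per symbol, limma treat at 0.5 and each library left out. The trimmed mean was computed without weights, unlike the plan. Scaling combined with left-out libraries, and the KRAB counts, were added after seeing the data.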

Additional observations from a re-analysis of the deposited data

How the results depend on the processing

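Counts of Zfp genes higher in osteoblasts and in chondrocytes, 54 and 62 as deposited, stayed within 1.5 times under both other pseudocounts, equal RPKM sums (39 and 84), moderation without trend, library weights (73 and 90) and 1 transcript per symbol. They were 20 and 29 with no filter, 24 and 18 at a mean RPKM of at least 5, where fewer genes were tested, and 8 and 10 with treat at 0.5. They were 14 and 123 with median-of-ratios, 15 and 116 with upper-quartile and 14 and 123 with trimmed-mean scaling. Leaving out single libraries gave 36 to 58 and 47 to 79 as deposited, and together with median-of-ratios scaling 11 to 17 and 105 to 129 (105, 105 and 113 without osteoblast replicates 1 to 3, and 112, 129 and 119 without the chondrocyte ones). Every single left-out library kept the call for 34 of the 54 and 43 of the 62. The median difference was 0.16 at a mean RPKM of at least 5, -0.33, -0.30 and -0.33 under these 3 scalings, -0.03 to 0.02 without single libraries and -0.36 to -0.33 without them after scaling (-0.35 without osteoblast replicate 3). Apart from changes that follow from fewer genes or samples, the cause was not tested. Except for median-of-ratios scaling of all libraries, shares over all tested genes are not given for the settings of this section. Changes of Zfp genes cannot be told there from changes of the whole table.

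Genes of the corepressor and chromatin list higher in osteoblasts, 24 as deposited, were 13, 14 and 13 under the same 3 scalings. They were 19 to 24 without single libraries. Those higher in chondrocytes, 1 as deposited, were 5, 5 and 6 under the scalings. They were 4 with equal sums and 1 to 2 without single libraries. Zbtb genes, 9 and 7, were 4, 4 and 4 and 20, 16 and 20, with 12 in chondrocytes under equal sums, and 5 to 9 and 6 to 11 without single libraries. Zscan and Zkscan genes, 1 and 4, were 0, 0 and 0 and 9, 8 and 9, and 1 to 2 and 3 to 4. KRAB genes, 15 and 38, were 5 and 65 after median-of-ratios scaling and 11 to 16 and 27 to 43 without single libraries; the others, 38 and 23, were 9 and 56, and 25 to 42 and 18 to 35.

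The labels give both groups replicates 1 to 3, but nothing says that a number joins samples, and deviations of same-numbered libraries correlated at 0.079, 0.0096 and -0.155. With the replicate block, 49 and 53 Zfp genes were called and 3 transcript shares in place of 6 (3 to 6 without single libraries). The shares lost under the block were NR_045038 of Zfp207 (adjusted p = 0.0603) and both transcripts of Zfp426 (adjusted p = 0.0524 and 0.0529), by limma. The block ended the calls of Zfp651 (adjusted p = 0.0513) and Zfp384 (adjusted p = 0.0615) among the named genes, by limma.

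Signs changed under median-of-ratios, upper-quartile and trimmed-mean scaling in Zfp503 (-0.25, -0.20, -0.25), Zfp143 (-0.27, -0.23, -0.28; -0.023 with equal sums), Zfp148 (-0.29, -0.24, -0.29), Zfp622 (-0.084, -0.029, -0.086), Zfp91 (-0.11, -0.058, -0.12), Zfp384 (-0.12, -0.062, -0.12) and Zfp426 (-0.075, -0.032, -0.077; -0.12 by its top transcript). Zfp219 was at -0.018 with median-of-ratios and -0.020 with the trimmed mean, and Zfp207 at -0.37 by its top transcript. Without single libraries Zfp703 ran from -0.24 to 0.020, Zfp503 from -0.021 to 0.36 and Zfp451 from -0.18 to 0.023.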
